A study of Saccharomyces cerevisiae with 29 samples.

Results

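The longest protein-coding genes of the budding yeast reference sequence L03 are described here. They were chosen as the gene features with an annotated mRNA that span 4000 bp or more, leaving out POL1 and POL2 (both altered in some of the strains), flocculin genes named FLO, and genes whose product is a retrotransposon protein. The annotation held 5859 gene features with an mRNA, of which 2 dubious reading frames were dropped. Of the remaining 5857 genes, 238 reached the length limit. After removal of 42 retrotransposon genes, FLO1, POL1 and POL2, 193 genes remained, or 3.295% of all genes. The choice used length, an annotated mRNA, name and product text, so length itself is no result below.

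The study made 29 libraries from 14 strains of Saccharomyces cerevisiae to map ribonucleotides in genomic DNA, by cutting the DNA at ribonucleotides with alkali and sequencing the 5′ ends so exposed. The strains are WT, pol2-M644G, pol2-M644L, pol3-L612G, pol3-L612M, pol1-Y869A and pol1-L868M, each with RNH201 (13 libraries in all) and as rnh201-delta (16 libraries). These alleles alter the catalytic subunits of DNA polymerases epsilon (pol2), delta (pol3) and alpha (pol1), and RNH201 encodes the catalytic subunit of RNase H2, which removes ribonucleotides from DNA. All strains were grown to mid log phase in YPDA medium at 30 °C. Every value below belongs to the reference annotation and none to a strain or library, since the sequenced ends were not analysed here.

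Replication forks leave an origin in both directions, and each gene is copied once per cell cycle. A gene transcribed away from its origin is read in the direction in which the fork moves, and a gene transcribed toward its origin is read head-on. In a fork moving away from an origin the leading strand is made mainly by DNA polymerase epsilon and the lagging strand by DNA polymerases alpha and delta, so the position and direction of a gene beside an origin tell which enzyme is taken to copy its transcribed strand.

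The 193 genes covered 1.016 Mb, which was 8.427% of the 12.06 Mb sequence and 11.63% of all bases inside genes. Their median length was 4755 bp against 1230 bp over all 5857 genes. Of them, 117 spanned 4 to 5 kb, 40 spanned 5 to 6 kb and 36 spanned 6 kb or more, 11 of these at least 8 kb. The longest was MDN1, which encodes a giant ATPase that strips assembly factors from the large ribosomal subunit. It spanned 14733 bp on the minus strand of chromosome XII, from 348915 to 363647. DYN1, the dynein heavy chain that moves the spindle into the bud neck, followed with 12279 bp on chromosome XI (535299 to 547577, minus strand). TRA1, the activator-binding subunit of the SAGA and NuA4 histone acetyltransferases, spanned 11235 bp on chromosome VIII (302769 to 314003, plus strand). TOM1, a ubiquitin ligase, spanned 9807 bp on chromosome IV (1369693 to 1379499, plus strand). VPS13, a bridge protein that moves lipids between membranes, spanned 9435 bp on chromosome XII (54211 to 63645, minus strand).

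The next in order were the paired Ras GTPase activators IRA1 (9279 bp) and IRA2 (9240 bp), the lipid transfer protein gene CSF1 (8877 bp), the telomere-length kinase gene TEL1 (8364 bp) and NUM1 (8247 bp), whose product anchors dynein and mitochondria at the cell cortex. At the other end of the range, YLR278C (4026 bp), YOL138C (4026 bp), POM152 (4014 bp), SEC3 (4011 bp) and YNR070W (4002 bp) lay just inside the limit. SPT7 (3999 bp), SSK22 (3996 bp), ADR1 (3972 bp), SSM4 (3960 bp) and NUP145 (3954 bp) lay just outside it. Coordinates are those of L03 (ref_v2), which the authors derived from the S288C genome version R64-1-1 per the file header, and are not positions on R64.

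Each gene was placed in 1 of 16 product classes from the product and note text of the annotation together with textbook knowledge, after the members were known. Chromatin and transcription formed the largest class with 29 genes, followed by membrane traffic and lipids with 27. GTPase control, TOR complexes and other signalling held 14 genes, as did cytoskeleton and polarity. ABC transporters, RNA processing and protein and lipid kinases held 13 each, metabolic enzymes 12 and the helicases of subtelomeric Y' elements 11. DNA repair and chromosome structure held 10 genes, the nuclear pore and the ubiquitin and proteasome class 8 each, and the cell wall 7. P-type ATPases and ion channels held 6 and ribosome assembly 5. For 3 genes, YOR093C, YMR259C and YOL138C, the file stated no function. RefSeq names them CMR2, TRM732 and RTC1. An enzyme commission number was given for 39 of the 193 (20.21%), against a background of 15.9% over all genes. That share was 21.63% among genes of 3 to 4 kb and 9.921% among those under 1 kb. A qualifier of experimental evidence stood on 180 of the 193 (93.26%), against a background of 80.7%. It stood on 88.65% of genes of 3 to 4 kb and on 72.84% of those under 1 kb.

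**Figure D1:**
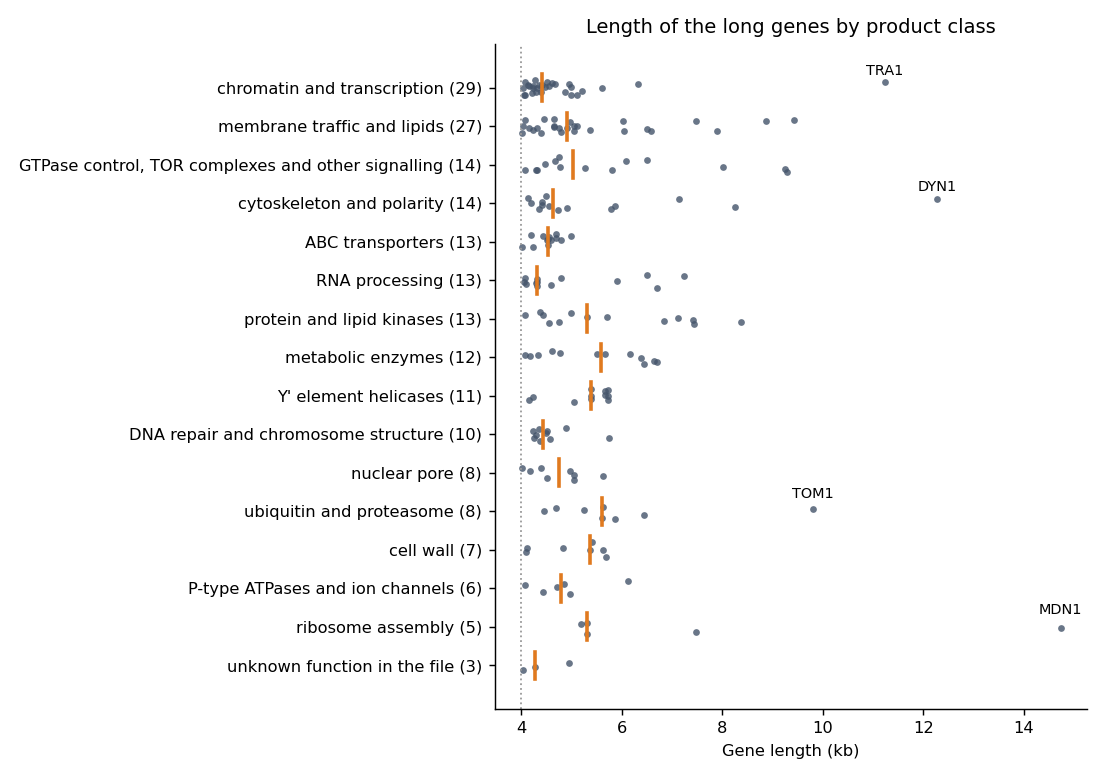
Length in kb (horizontal axis) of each of the 193 long genes, as a point, by product class (vertical axis, with the number of genes). Orange bars are class medians and the dotted line is the 4 kb limit, and the 4 longest genes, MDN1, DYN1, TRA1 and TOM1, stand apart from their own classes.

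Class medians ran from 4.263 kb for the 3 genes without a stated function to 5.613 kb for the ubiquitin and proteasome class. The 13 ABC transporter genes all lay between 4002 bp (YNR070W) and 4986 bp (YBT1). Ribosome assembly showed the widest range, from RRP5 at 5190 bp to MDN1 at 14733 bp.

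Direction relative to the nearest origin is given with the groups below, and the background to each count is the 49.6% of all 5857 genes that were transcribed away. In the chromatin and transcription class, all 3 nuclear RNA polymerases are represented by their largest subunit, namely RPO21 of polymerase II (5202 bp), RPA190 of polymerase I (4995 bp) and RPO31 of polymerase III (4383 bp). Their nearest origins lay 4.583, 18.1 and 24.57 kb from the gene midpoint, and RPO21 and RPO31 were transcribed away from them while RPA190 was transcribed toward its own. The mitochondrial RNA polymerase gene RPO41 (4056 bp) also belongs to this class. The 6 listed ATPases of the Snf2 type, which move or exchange nucleosomes or strip proteins from DNA, spanned 4080 bp (STH1) to 5604 bp (MOT1), with SNF2 at 5112 bp, SWR1 at 4545 bp, INO80 at 4470 bp and CHD1 at 4407 bp. Of these 6, SNF2, STH1, INO80 and CHD1 were transcribed away from the nearest origin, and MOT1 and SWR1 toward it.

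Kinases of the phosphatidylinositol-3-kinase-like family and lipid kinases are among the longest members. TOR1 (7413 bp) and TOR2 (7425 bp), the growth-controlling TOR kinases, MEC1 (7107 bp) and TEL1 (8364 bp), the DNA damage kinases, TRA1, which has the fold without kinase activity, and the lipid kinase genes STT4 (5703 bp) and FAB1 (6837 bp) formed a list of 7. Of the 7, 5 were transcribed away from the nearest origin and 2 (TOR2 and FAB1) toward it, with a median distance of 11.53 kb. TRA1 lay 62.53 kb from an origin, the farthest of the 7, and TOR2 lay 3.853 kb from one, the nearest. Nutrient and stress signalling genes IRA1, IRA2, GCN1 (8019 bp), CYR1 (adenylate cyclase, 6081 bp), RIM15 (5313 bp) and GCN2 (4980 bp) split evenly, 3 away and 3 toward. GCN2 is the kinase that senses amino acid starvation, and GCN1 is its activator on the ribosome.

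Membrane proteins form further sets. Of 14 listed genes for ABC transporters, which pump lipids, drugs and peptides across membranes, 13 were long enough, and only the a-factor exporter gene STE6 (3873 bp) fell short of 4000 bp. Transcription led away from the nearest origin in 11 of the 13 (PDR5, PDR10, PDR11, PDR12, PDR15, YNR070W, SNQ2, AUS1, YBT1, BPT1 and YOR1). It led toward the origin in YCF1 and VMR1. Their distances ran from 5.166 kb for PDR15 to 75.77 kb for YNR070W, which RefSeq calls PDR18. The 4 flippases of the P4 type, which move phospholipids to the inner leaflet, were DRS2 (4068 bp), DNF1 (4716 bp), DNF2 (4839 bp) and DNF3 (4971 bp). DNF1 and DNF2 were transcribed toward origins 5.8 and 6.29 kb away, and DRS2 and DNF3 away from origins 26.81 and 29.95 kb away.

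Traffic and lipid transfer genes on the list numbered 11, of which 7 were transcribed away from the nearest origin. They comprised the Golgi exchange factors SEC7 (6030 bp), GEA1 (4227 bp) and GEA2 (4380 bp), their relative MON2 (4911 bp) and its partner DOP1 (5097 bp), the coat scaffold SEC16 (6588 bp) and the tether USO1 (5373 bp). The bridge-like lipid transfer proteins VPS13, CSF1, FMP27 (7887 bp) and ATG2 (4779 bp) completed it. GEA1, MON2, CSF1 and ATG2 were transcribed toward their nearest origin. YPR117W (7470 bp), which RefSeq names HOB2, was in the same class but not on the list.

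The listed nuclear pore genes, which encode scaffold, cytoplasmic filament and basket proteins, were NUP192 (5052 bp), NUP188 (4968 bp), NUP170 (4509 bp), NUP159 (4383 bp), NUP157 (4176 bp), MLP1 (5628 bp) and MLP2 (5040 bp), and 5 of these 7 were transcribed away from the nearest origin. NUP157 and NUP159 were transcribed toward it, as was the ring protein gene POM152, the eighth gene of the class. Motors and cortical proteins numbered 7, with the myosin genes MYO1 (5787 bp), MYO2 (4725 bp) and MYO4 (4416 bp) and the formin genes BNI1 (5862 bp) and BNR1 (4128 bp) beside DYN1 and NUM1. Among them, MYO1, MYO2, NUM1 and BNI1 were transcribed away, and DYN1, MYO4 and BNR1 toward.

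Large metabolic enzymes, some of which carry several reactions of a pathway on 1 chain, made a list of 9. ACC1 (6702 bp) and HFA1 (6372 bp) encode the cytosolic and mitochondrial acetyl-CoA carboxylases, and FAS1 (6156 bp) and FAS2 (5664 bp) the subunits of fatty acid synthase. URA2 (6645 bp) starts pyrimidine synthesis, GLT1 (6438 bp) makes glutamate, and DUR1,2 (5508 bp) degrades urea. ARO1 (4767 bp) carries out central steps of aromatic amino acid synthesis and LYS2 (4177 bp) a step of lysine synthesis. Only URA2, FAS1, ARO1 and LYS2 of the 9 were transcribed away from the nearest origin. The subunits of fatty acid synthase lay at like distances, 5.301 kb for FAS1 and 5.152 kb for FAS2, but FAS1 was transcribed away from its origin and FAS2 toward it.

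Genes of RNA and protein turnover made smaller lists. PRP8 (7242 bp) is the core of the spliceosome, BRR2 (6492 bp) its unwinding helicase, SEN1 (6696 bp) a helicase that ends transcription, SLH1 (5904 bp) a helicase relative of BRR2 that acts on ribosomes, and KEM1 (4587 bp, XRN1 in RefSeq) the cytoplasmic 5′ exonuclease. Of the 5, PRP8 and SLH1 were transcribed away from the nearest origin. The listed ubiquitin ligase genes TOM1, UBR1 (5853 bp), UBR2 (5619 bp) and UFD4 (4452 bp) had UBR1 alone transcribed away. RKR1 (4689 bp), in the same product class but not on the list, was also transcribed away. In ribosome assembly, MDN1, RRP5 and URB1 (5295 bp) were transcribed away and UTP10 (5310 bp) and UTP20 (7482 bp) toward. The glucan synthase genes FKS1 (5631 bp), GSC2 (5688 bp) and FKS3 (5358 bp), which make the main cell wall polymer, were all on the plus strand, and only FKS1 was transcribed away. Every one of these lists has fewer than 15 genes and was chosen with earlier results of these data known, so the counts describe the lists and are no test of them.

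Long genes were present on all 16 chromosomes. Chromosomes IV and XII held 23 each, and the short chromosomes I and VI held 4 each. In the L03 sequence chromosome XII is shorter than chromosome IV (1078.1 kb against 1531.7 kb) and so carried more per unit of length. Chromosome lengths, densities and shares here are those of this sequence and not of chromosomes measured in cells. Per 100 kb, the number ran from 1.16 on chromosome XVI to 2.281 on chromosome X, with 2.277 on chromosome IX and 2.133 on chromosome XII. Long genes took up 12.34% of chromosome XII, the highest share, and 6.089% of chromosome XVI, the lowest. Chromosome XII holds MDN1, the lipid transfer protein genes VPS13, CSF1 and FMP27, and the transporter genes YBT1 and BPT1.

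**Figure D2:**
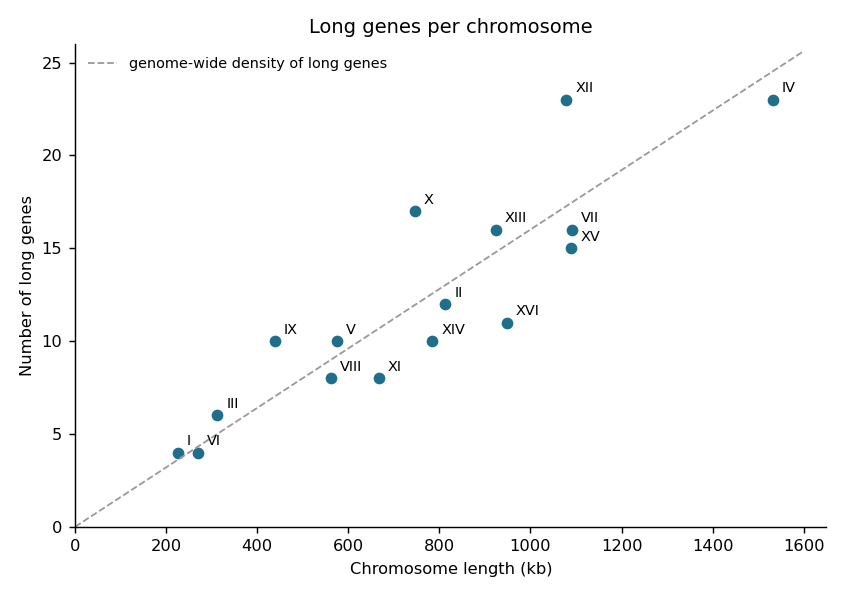
Number of long genes (vertical axis) against chromosome length in kb (horizontal axis) for the 16 chromosomes, with the genome-wide density as a dashed line. Chromosomes IX, X and XII lie farthest above the line and chromosomes XI, XIV and XVI farthest below it.

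Consecutive long genes on a chromosome were separated by a median of 35.92 kb (quartiles 15.63 and 68.1 kb, over 177 gaps). The widest gap, 349.5 kb on chromosome XIII, lay between RSE1, a splicing factor gene, and POM152, a membrane ring protein of the nuclear pore. In 31 of the 177 cases the gap was under 10 kb. Over all genes there were 5840 pairs of direct neighbours, and in 6 of them both genes were long. Long genes are 3.295% of all genes, and clustering was not tested. The 6 pairs included YTA7 and SLH1 (281 bp apart, transcribed in tandem), DNA2 and PRP8 (528 bp, tandem), and YRF1-4 and YRF1-5 (1272 bp, tandem). SMC4, a condensin subunit, and CSF1 converged with 352 bp between them. SNF2 and YOR291W, a vacuolar P-type ATPase that RefSeq names YPK9, diverged from a gap of 916 bp. ECM17, a sulfite reductase subunit, and IML1, a subunit of a complex that restrains TOR, diverged from a gap of 1281 bp in which the origin ARS1021 lies. The largest joined span was that of SMC4 and CSF1, with 13134 bp of gene sequence.

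Strand was evenly shared. The plus strand carried 95 of the 193 genes (49.2%, exact Clopper-Pearson 95% interval 42.0 to 56.5%), against a background of 50.5% over all genes. The intervals here and below treat genes as independent, which neighbouring genes are not. Metabolic enzymes had 4 of 12 on the plus strand, membrane traffic and lipids 9 of 27, and the cell wall class 6 of 7. By chromosome, III had 5 of 6 and XV 11 of 15 on the plus strand, and XIII had 4 of 16.

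The distance to replication origins was measured from the midpoint of the gene to the midpoint of the nearest of the 274 annotated origins. The median over the long genes was 14.99 kb, with quartiles of 8.544 and 25.65 kb, against a median of 13.52 kb (quartiles 6.288 and 24.11 kb) over all genes. Measured from the nearest edge of the gene, the medians were 12.28 kb and 12.74 kb. A long gene has its midpoint at least 2 kb from its own edge, which enters the first of these measures. The file marks experimental evidence for 4 of these 274 origins.

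The 6 genes nearest to an origin were BLM10 at 1.216 kb, IKI3 at 2.186 kb, SIR4 at 2.207 kb, PSK1 at 2.213 kb, ATG2 at 2.462 kb and ECM5 at 2.475 kb. BLM10 encodes a proteasome activator, IKI3 a subunit of the Elongator complex, SIR4 a silencing protein of telomeres and mating-type loci, and PSK1 a sugar-regulated kinase. ECM5 was transcribed away from its origin and the other 5 toward theirs. The 6 farthest were YRF1-8 at 106.6 kb, YIL177C at 102.6 kb, VTH1 at 92.09 kb, YRF1-3 at 88.16 kb, YNR070W at 75.77 kb and YOR093C at 63.1 kb. The first 5 of them lie within 25 kb of a chromosome end, beyond the last annotated origin of that arm. YOR093C lies inside chromosome XV, between ARS1501 and ARS1516.

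**Figure D3:**
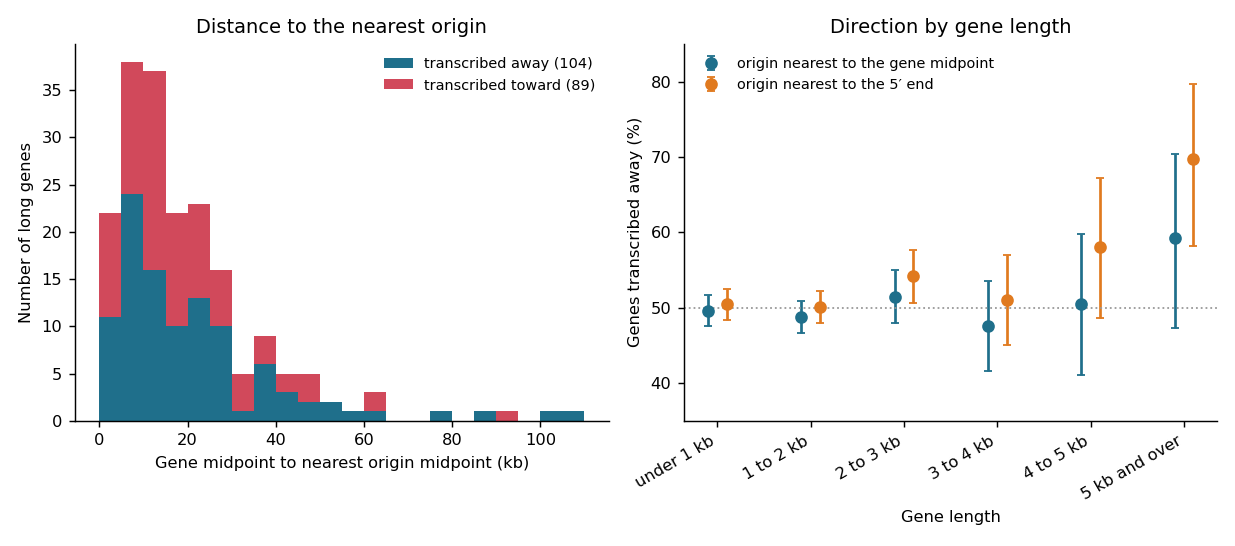
Left, number of long genes (vertical axis) by distance in kb from gene midpoint to nearest origin midpoint (horizontal axis, 5 kb bins), split into the 104 transcribed away from the origin and the 89 transcribed toward it. Right, percent of genes transcribed away (vertical axis, starting at 35%) by gene length, with exact 95% intervals, by the origin nearest to the midpoint and by that nearest to the 5′ end; the share of genes of 5 kb and over is 59.21% by midpoint and 69.74% by 5′ end.

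Transcription led away from the nearest origin in 104 of the 193 genes (53.89%, interval 46.58 to 61.07%), against a background of 49.6% over all genes, which lies inside that interval. The count was 52 of 95 on the plus strand and 52 of 98 on the minus strand. By distance, 11 of 22 genes within 5 kb of an origin were transcribed away, 24 of 38 at 5 to 10 kb, 26 of 59 at 10 to 20 kb, 23 of 39 at 20 to 30 kb and 20 of 35 beyond. These shares showed no steady order with distance. By length, the share was 49.6% under 1 kb, 48.76% at 1 to 2 kb, 51.44% at 2 to 3 kb, 47.52% of 282 genes of 3 to 4 kb, 50.43% of 117 genes of 4 to 5 kb and 59.21% of 76 genes of 5 kb and over (interval 47.33 to 70.35%). The last group includes 9 Y' element helicases, 8 of them transcribed away, and without them 37 of 67 (55.22%, interval 42.58 to 67.4%) were transcribed away.

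When the origin nearest to the 5′ end was used in place of the midpoint, 121 of the 193 genes (62.69%, interval 55.46 to 69.53%) were transcribed away, against a background of 51.3%. The 5′ end lies upstream of the midpoint, so a gene between origins is then assigned more readily to the origin behind it, and the more so the longer it is. Among genes of 5 kb and over the share was 69.74% by this measure (65.67% without the helicases), and among genes under 4 kb it stayed between 50.1% and 54.2% in each length class.

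Counts by product class are read against the 49.6% of all genes. ABC transporters were transcribed away in 11 of 13 cases, Y' element helicases in 10 of 11, GTPase control and signalling in 10 of 14, and DNA repair and chromosome structure in 7 of 10. Chromatin and transcription genes were transcribed away in 11 of 29 cases, RNA processing in 5 of 13 and the ubiquitin and proteasome class in 2 of 8. Protein and lipid kinases were transcribed away in 8 of 13 cases, membrane traffic and lipids in 13 of 27, metabolic enzymes in 6 of 12 and cytoskeleton and polarity in 6 of 14. On chromosomes III and VI none of the long genes was transcribed away from its nearest origin, 0 of 6 and 0 of 4. The 6 on chromosome III were BPH1, CDC39, BUD3, FIG2, SRB8 and TAF2, and the 4 on chromosome VI were FAB1, BLM10, RIM15 and RPO41. No class or chromosome was tested.

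**Figure D4:**
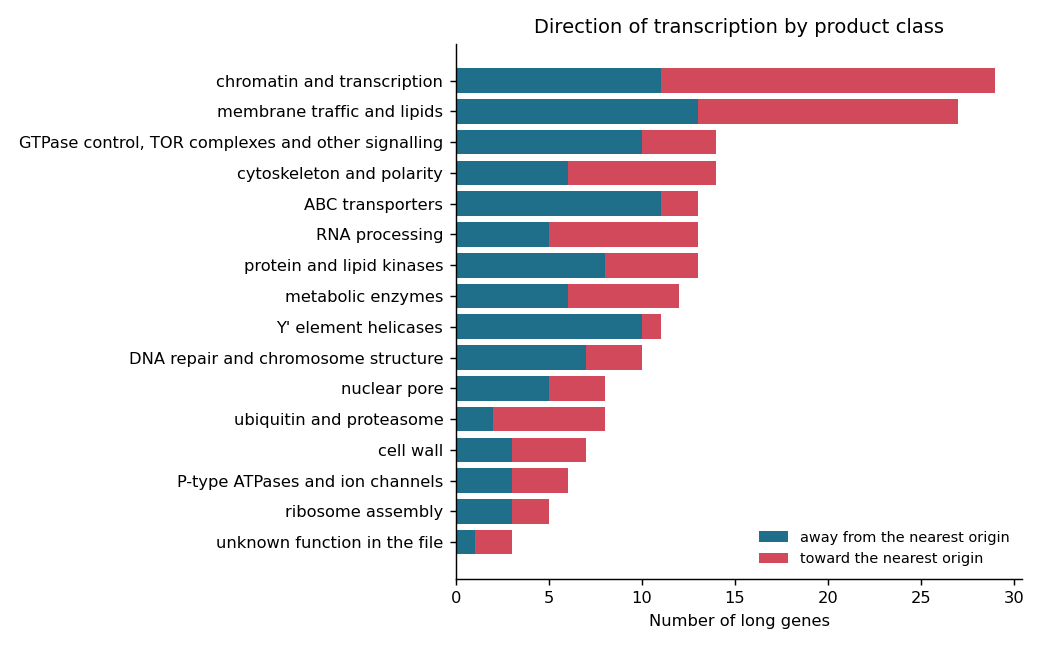
Number of long genes (horizontal axis) transcribed away from (blue) or toward (red) the nearest origin, by product class (vertical axis). The blue part is the larger for ABC transporters (11 of 13) and Y' element helicases (10 of 11), and the smaller for chromatin and transcription (11 of 29) and the ubiquitin and proteasome class (2 of 8).

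An annotated origin overlapped 4 of the 193 long genes (2.073%), against a background of 2.1% over all genes. Among genes of 3 to 4 kb the share was 5.319%, or 15 of 282. ARS604 (321 bp, chromosome VI from 127753 to 128073) lies wholly inside BLM10, which spans 123481 to 129912 on the plus strand, and nearer to its 3′ end. BLM10 was the only member to hold the midpoint of an origin, 1 of 193 (0.518%) against a background of 0.137%, which is 8 of all 5857 genes. In the other 3 genes the origin overlapped the 3′ end. ARS1001 shares 112 bp with the helicase gene YJL225C, ARS1412 shares 46 bp with the autophagy gene ATG2, and ARS1003 shares 1 bp with VTH2, which encodes a relative of the vacuolar sorting receptor.

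An origin midpoint lay inside the gene or within 1 kb of its edge for 16 of the 193 (8.29%), against a background of 7.92%. The 3′ end was the nearer end in 11 of the 16 (68.8%), BLM10 included, against a background of 62.1%, over 464 genes. Origins with the midpoint outside the gene lay closest at the 3′ ends of ATG2, TOR2, YJL225C, IKI3, SIR4, TAO3, PSK1, VTH2 and RIM15. Their midpoints were 72.5 to 333 bp from the gene, as distances here are to origin midpoints. The 5 next closest, ECM5, URB1, RIF1, ECM17 and IML1, had the 5′ end at the origin, at 358 to 689 bp, and FIG2 followed with its 3′ end at 710.5 bp. TOR2 ended 141 bp from the midpoint of ARS1103. RIF1, whose product holds back origin firing and telomere lengthening, began 446 bp from the midpoint of ARS225. With a limit of 5 kb the number was 43 of the 193 (22.3%), against a background of 23.2%, and the 3′ end was the nearer end in 19 of the 43 (44.19%), against 53.24% of the 1360 such genes in all. No origin lay within 20 kb of either edge of 57 of the 193 (29.5%), against a background of 31.1%.

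An origin stood on both sides of 173 of the 193 genes, and the other 20 lay beyond the last origin of a chromosome arm. The 173 fell into 122 of the 258 intervals between neighbouring origins. As many as 4 shared an interval, in 4 cases. MYO4, DRS2, LTE1 and PSK1 lay between ARS106 and ARS107 on chromosome I, and HKR1, SSN2, TOM1 and SPP41 between ARS435 and ARS440 on chromosome IV. IKI3, YLR419W, YLR422W and SEN1 lay between ARS1238 and ARS1232 on chromosome XII, and MYO2, PDR10, KRE5 and RPA190 between ARS1528 and ARS1529 on chromosome XV. The last 4 are all on the plus strand, so MYO2 and PDR10, in the left part, were transcribed away from the nearest origin and KRE5 and RPA190, in the right part, toward it. MDN1, CSF1 and SMC4 shared the 83.93 kb between ARS1212 and ARS1213.

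The middle between the flanking origins fell inside 26 of the 173 genes (15.0%), against a background of 3.32% over all genes with origins on both sides. Length enters this share by construction, since a longer gene covers more of an interval. The longest such genes were YPR117W (7470 bp in an interval of 27.82 kb), BPH1 (6504 bp in 27.46 kb), BRR2 (6492 bp in 28.79 kb) and CDC39 (6327 bp in 19.68 kb). CDC39 encodes the scaffold of the CCR4-NOT complex of mRNA decay, BPH1 a large protein of the BEACH family.

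Neighbours were described by strand and gap. At its 5′ side a long gene faced a divergent protein-coding neighbour, transcribed in the opposite direction, in 112 of 193 cases (58.03%, interval 50.73 to 65.08%), against a background of 52.1% over all genes. The share was 61.54% of 117 genes of 4 to 5 kb and 52.63% of 76 genes of 5 kb and over, and 43.97% of the 282 genes of 3 to 4 kb, so it did not move steadily with length. At its 3′ side the neighbour was convergent in 100 of 183 cases (54.64%, interval 47.13 to 62.0%), against a background of 52%. The 10 genes without a 3′ neighbour are Y' element helicases that end toward the telomere.

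The gap to the 5′ neighbour had a median of 560 bp (quartiles 362 and 916 bp, n = 193) against 459.5 bp (quartiles 289 and 759.5 bp) over all genes. The 3′ gap was 305 bp (n = 183) against 307 bp. The 5′ difference stood in both arrangements, with 670 against 545 bp upstream of divergent neighbours and 484 against 405 bp in tandem. By length, the median 5′ gap was 419 bp under 1 kb, 479 bp at 1 to 2 kb, 459 bp at 2 to 3 kb, 511 bp at 3 to 4 kb, 500 bp at 4 to 5 kb and 608.5 bp at 5 kb and over, while the median 3′ gap stayed between 296 and 321 bp. All 193 gene features had the ends of their coding sequence, so untranslated parts count as gap.

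**Figure D5:**
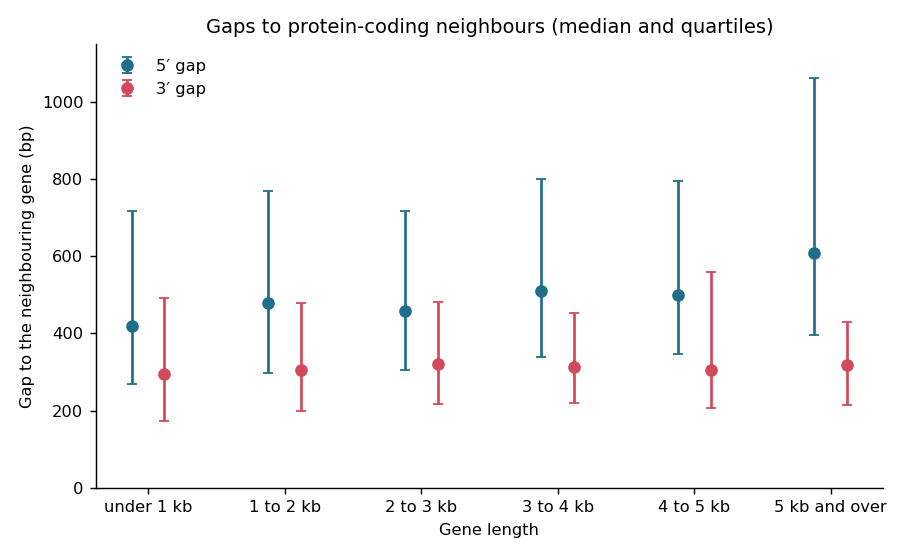
Gap in bp (vertical axis) to the protein-coding neighbour on the 5′ side (blue) and 3′ side (red) by gene length (horizontal axis), as medians (points) and quartiles (bars), for genes under the same exclusions as the long genes. The 5′ medians run from 419 to 608.5 bp and the 3′ medians from 296 to 321 bp.

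The widest 5′ gap was that of BPT1, a vacuolar transporter, with 4852 bp. It was followed by MUC1, the flocculin gene that RefSeq names FLO11, with 3618 bp, DUR1,2 with 3339 bp, YNR070W with 2782 bp, and the sterol importer AUS1 with 2728 bp. MUC1 also had the widest 3′ gap, 3870 bp, followed by FAB1 with 3473 bp. MUC1 was kept because the file does not name it FLO. All these gaps run to protein-coding neighbours, so RNA genes can lie in them. A tRNA gene lay 797 bp from DUR1,2, 178 bp from AUS1 and 175 bp from FAB1, on a side not given here. The narrowest 5′ gaps without overlap were those of IKI3 (91 bp, from the tandem gene SWC7) and RSE1 (121 bp, from the divergent gene GSF2). At the 3′ side, FIG2 (51 bp), YOR291W (59 bp) and TEL1 (65 bp) lay closest to a convergent neighbour. These genes outside the stated lists were picked for their values.

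Overlap with another protein-coding gene was found in 2 of the 193 (1.036%), against a background of 1.86%, which includes the retrotransposon genes. Among genes under 4 kb with the same exclusions as the long genes the share was 1.185%. Both long genes with an overlap are Y' element helicases. YRF1-2 contained YER190C-B (483 bp, opposite strand) and shared 44 bp with YER189W at its 5′ end. YRF1-4 shared 415 bp with YLR464W at its 5′ end on the same strand. Other features inside long genes were few. IRC20 held a sequence-tagged site of 274 bp on the opposite strand. Telomeric repeat regions aside, HAP1, the haem-responsive transcription factor gene, shared 100 bp with a Ty1 long terminal repeat, DRS2 held 393 bp of the noncoding RNA HRA1 on the opposite strand, and TAF2 shared 4 bp with the mating-type region annotated as MATALPHA.

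The 11 Y' element helicase genes stand apart by position. All lie in repeat regions annotated as Y' elements at 10 chromosome ends, and 10 of them start the list of genes nearest to an end, at 0.222 kb (YRF1-1) to 0.482 kb (YIL177C), with YRF1-4 next at 6.942 kb. All were transcribed toward the telomere, and 10 of the 11 away from the nearest annotated origin, YJL225C being the exception. Within 25 kb of a chromosome end lay 14 of the 193 (7.254%), against a background of 5.28%, and the 3 that are not helicases were VTH1, VTH2 and YNR070W. The lengths fell into groups, with 3 genes of 5728 bp (YRF1-3, YRF1-6 and YRF1-7), 3 of 5391 bp (YRF1-1, YRF1-5 and YRF1-8) and 2 of 5666 bp (YIL177C and YJL225C). The sequences were not compared here, and reads from repeated elements cannot be told apart where the bases are identical.

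Introns were confined to the same family within the 193 genes. More than 1 coding exon was annotated in 6 (3.109%), against a background of 5.38%, and all 6 were helicases, namely YRF1-3, YRF1-6, YRF1-7, YIL177C, YJL225C and YML133C. The coding length differed from that required by the stated protein in 6 (3.109%), against a background of 1.54%. APC1, the largest subunit of the anaphase-promoting complex, and BUD4, a bud neck protein, were 3 bp short, and LYS2 was 2 bp short. PDR11, YIL177C and YJL225C were 1 bp too long. The bases themselves were not analysed here.

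Nearness to other landmarks was counted in the same way. Within 10 kb of a centromere lay 4 (2.073%), against a background of 3.09%. These were UTP20 (3090 bp from CEN2), SIN3 (5036 bp from CEN15), CYR1 (5070 bp from CEN10) and PAN1 (9721 bp from CEN9). A tRNA gene lay within 1 kb of 16 (8.29%), against a background of 7.05%, and a long terminal repeat of 10 (5.181%), against a background of 6.68%. That background includes the retrotransposon genes, which were left out of the members. Over the 5568 genes under 4 kb with the same exclusions, the shares were 6.142% for a tRNA gene and 5.262% for a long terminal repeat. FMP27, UTP20, FAB1, CCH1, SEC7, SNF2, RKR1, YLR419W and AUS1 had both within 1 kb.

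Among 15 pairs of related long genes, 7 pairs had the same direction relative to the nearest origin, and only MEC1 and TEL1 shared a chromosome. Protein lengths were close in IRA1 and IRA2 (3092 and 3079 residues), TOR1 and TOR2 (2470 and 2474), FKS1 and GSC2 (1876 and 1895) and PDR5 and PDR15 (1511 and 1529). They were farther apart in MEC1 and TEL1 (2368 and 2787) and SNF2 and STH1 (1703 and 1359). IRA1 lay 35.16 kb from an origin and was transcribed toward it, while IRA2 lay 8.591 kb from one and was transcribed away. TOR1 lay 22.43 kb from an origin and was transcribed away, while TOR2 lay 3.853 kb from one and was transcribed toward it. FKS1 and GSC2 lay at 18.67 and 17.51 kb, with FKS1 transcribed away and GSC2 toward. DNF1 and DNF2, at 5.8 and 6.29 kb, were both transcribed toward, and PDR11 and AUS1, at 11.65 and 14.37 kb, both away.

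Some pairs also had neighbours with matching names. MYO2, which carries vesicles into the bud, lay between FRT1 and SNC2, and MYO4, which carries mRNA, between FRT2 and SNC1, in the same order and on strands opposite to the myosin gene. MYO2 and MYO4 were 19.66 and 19.69 kb from their nearest origins, MYO2 transcribed away and MYO4 toward. MLP1 and MLP2 had RPL40B and RPL40A as divergent 5′ neighbours, and PDR11 and AUS1 had TIR3 and TIR2. FKS1 and GSC2 had RPL26A and RPL26B within 3 genes downstream, and NUP157 and NUP170 had SSA4 and SSA3 there. These neighbours lay on the same side and in the same orientation to both long genes of the pair. TIR4, the next gene beyond TIR2, is on the same strand as AUS1, while TIR3 is opposite to PDR11. RPB2 and RPB7, at the same place upstream of PDR5 and PDR15, also match in name, but encode different subunits of RNA polymerase II. The direction relative to the nearest origin matched for MLP1 and MLP2, for PDR11 and AUS1 and for PDR5 and PDR15. It did not match for MYO2 and MYO4, for FKS1 and GSC2 or for NUP157 and NUP170.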

How the data were processed

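The libraries were made by HydEn-seq. Per the submitters' processing notes, the tools used included cutadapt (version 1.2.1) and also Bowtie (version 0.12.8). The 1 file used is the authors' deposited annotation of L03, derived from S288C R64-1-1 per the file header. Its values are other than expression, namely feature types, starts, ends and strands in bp counted from 1. The sources used here do not state how positions were carried over to L03.

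Lengths, gaps, nearest origins and neighbours were computed with numpy 2.4.6 and scipy 1.17.1 under Python 3.11.15, and plotted with matplotlib 3.10.9. Neighbours are protein-coding genes. The placement code was tested on simulated data with 19 genes of known position, of which 0 were not recovered. All 193 members were matched in the RefSeq gene table by locus tag, 15 of them under another symbol, and names are those of the file. No test was run: shares and medians stand beside the same over all genes, and intervals are exact Clopper-Pearson 95% intervals, which treat genes as independent.

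The members, lists and pairs were chosen with earlier results of these data known, and product classes were assigned by hand afterwards. Genes were named by rule: the 10 longest, 5 on each side of the limit, the 6 nearest to and 6 farthest from an origin, those that overlap an origin or gene, adjoin another member, have over 1 coding exon or an unmatched coding length, and 14 lists. Alternatives changed the length limit, the gene position, the origins and genes used and the kind of neighbour. Protein and DNA sequences and the library end counts were not used here.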

Additional observations from a re-analysis of the deposited data

How the results depend on the processing

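The 8 values that describe the long genes (their number, strand, direction, origin distance, neighbours and gaps) were recomputed in 25 ways, 17 planned and 8 added after seeing the data, and 3 of the 25 moved. Some of the 25 could not move. Counting overlaps as a gap of 0 cannot shift a median gap above 0. For direction, the nearest edge picks the same origin as the midpoint unless an origin lies inside the gene. A count was taken to move beyond 1.5 times, and a share or median when it left the 95% interval of the value reported. A limit of 5000 bp left 76 genes in place of 193, and a limit of 3500 bp gave 287, or 1.487 times as many, just within the tolerance. The share transcribed away from the nearest origin was 62.69% by the 5′ end in place of 53.89% by the midpoint. The median origin distance was 12.28 kb from the nearest edge in place of 14.99 kb from the midpoint. Both differences follow in part from construction, since the 5′ end lies upstream of the midpoint and the edge lies nearer. Without the 11 Y' element helicases, 182 genes remained, with 51.65% transcribed away, 14.28 kb to the nearest origin, 59.34% with a divergent 5′ neighbour and a 5′ gap of 535.5 bp. No paired analysis was possible because no library value was analysed here and the results come from no test. The annotation is 1 reference without replicates, and origin positions are those listed, of which 4 of 274 carry a qualifier of experimental evidence.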

Other observations

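The left ends of chromosomes IX and X carry long genes of equal length at equal gaps but differ in their annotated origins, and the sequences were not compared here. YIL177C and YJL225C, helicase genes of Y' elements, both span 5666 bp and start at 483 and 466. VTH1 and VTH2, relatives of the vacuolar sorting receptor, both span 4650 bp and start at 11493 and 11476, so that the offset is 17 bp for each. Their gaps also match, at 2645 bp upstream of the helicase genes, 2336 bp upstream of VTH1 and VTH2 and 642 bp downstream of these. The first 20 kb hold 3 annotated origins on chromosome X and 0 on chromosome IX, where the first is ARS909 with its midpoint at 105.9 kb. The distance to the nearest origin is therefore 2.978 kb for YJL225C against 102.6 kb for YIL177C, and 2.643 kb for VTH2 against 92.09 kb for VTH1. Of the 6 genes farthest from an origin, 2 come from this end of chromosome IX, and the values rest on which origins the file lists.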
